A study of Saccharomyces cerevisiae with 12 samples.

Results

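The tricarboxylic acid cycle enzymes described here are 10 nuclear genes of Saccharomyces cerevisiae: CIT1, ACO1, IDH1, IDH2, KGD1, KGD2, LSC1, LSC2, FUM1 and MDH1. They were taken by gene name and not by a measured value, and each matched 1 of the 6352 genes in each of 7 comparison tables. RNA was sequenced from 12 libraries in 6 groups of 2. The wild type was BY4741, a haploid laboratory strain, and the other strains were BY4741 with the SCD6 gene deleted (Δscd6) or the SBP1 gene deleted (Δsbp1); the encoded RNA-binding proteins act in translation repression and are found in cytoplasmic RNA granules. Each strain was grown in YEPD, a rich medium with glucose, to an optical density of 0.4 to 0.5, and was sampled untreated or after 30 minutes with 0.5% sodium azide, which blocks cytochrome c oxidase, the last enzyme of the respiratory chain. Whether a deletion strain was 1 clone is not stated in the labels.

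The cycle runs in the mitochondrial matrix. It joins acetyl units to oxaloacetate, oxidises the resulting citrate in steps that release carbon dioxide and feed electrons to the respiratory chain, and returns to oxaloacetate; its early part also supplies 2-oxoglutarate for glutamate. Yeast growing on glucose ferments, and many cycle genes are then repressed and depend on the Hap2/3/4/5 activator, while the retrograde pathway through Rtg1 and Rtg3 is known to keep the early steps expressed, from citrate synthase to isocitrate dehydrogenase, when respiration is impaired.

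Each table gives a gene's mean normalised read count over the libraries and, for 1 pair of groups, its log2 fold change with raw and Benjamini-Hochberg adjusted p-values. The words rose and fell are kept for an adjusted p under 0.05. Values per library were not used here, so no spread between replicates is shown; a level per group was solved from the overall mean and the log2 fold changes, and 95% intervals come from the standard error that a fold change and its p-value imply. That standard error was between 0.20 and 0.27 on the log2 scale for the 10 genes, and the median over all genes was 0.24. Whether the 2 libraries of a group came from different cultures is not in the labels; the p-values therefore rest on a spread between libraries that may be technical. As a check of the deletions, the authors' deposited table puts SCD6 at 1.3% (untreated) and 4.5% (azide) of the wild type in Δscd6, and SBP1 at 0.3% and 1.3% in Δsbp1. The summed level of all genes was not equal between groups; scaling the groups to equal totals would add 0.15 to every log2 azide response in the wild type, 0.39 in Δscd6 and 0.28 in Δsbp1, and the calls of the 10 enzymes that change with it are named beside the genes. The summed levels are made of normalised counts and measure neither cell number nor RNA per cell. Fewer cells with the same RNA and less RNA per cell cannot be told apart in such libraries.

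The stretches upstream of 4 genes are shown because these genes carry the largest rise (CIT1) and the largest falls (ACO1, IDH1 and IDH2) seen among the 10 in the wild type. They were read from the RefSeq R64 assembly by its own annotation and run 5′ to 3′ from 250 to 51 bases before the start codon. Capitals mark CCAAT or its reverse complement ATTGG, the core motif of the Hap2/3/4/5 complex, and AGGGG or its reverse complement CCCCT, the stress element of Msn2 and Msn4. CIT1 lies on the minus strand (chrXIV:631112-631311), as do ACO1 (chrXII:737599-737798) and IDH1 (chrXIV:559053-559252), and IDH2 lies on the plus strand (chrXV:580000-580199).
CIT1: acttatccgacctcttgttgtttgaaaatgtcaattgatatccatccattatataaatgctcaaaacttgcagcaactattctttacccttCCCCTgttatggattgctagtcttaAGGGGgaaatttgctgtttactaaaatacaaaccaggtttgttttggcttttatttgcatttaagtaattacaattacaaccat
ACO1: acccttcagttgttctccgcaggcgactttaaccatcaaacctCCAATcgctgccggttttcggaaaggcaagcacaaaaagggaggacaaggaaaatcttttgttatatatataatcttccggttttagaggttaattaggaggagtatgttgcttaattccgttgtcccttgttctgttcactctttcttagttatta
IDH1: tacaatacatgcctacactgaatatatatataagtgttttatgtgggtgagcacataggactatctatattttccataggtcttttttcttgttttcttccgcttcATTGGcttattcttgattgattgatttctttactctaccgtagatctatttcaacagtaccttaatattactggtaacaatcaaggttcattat
IDH2: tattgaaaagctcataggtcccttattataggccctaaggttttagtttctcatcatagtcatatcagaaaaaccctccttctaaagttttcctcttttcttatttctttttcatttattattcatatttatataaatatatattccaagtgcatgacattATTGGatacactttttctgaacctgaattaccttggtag

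In the window from 250 bases before to 50 after the start codon, searched on both strands, CCAAT was present in 5 of the 10 genes (ACO1, IDH1, IDH2, FUM1 and MDH1), against 43.3% of 6001 yeast promoters. AGGGG was present in 3 of 10 (CIT1, KGD2 and LSC1), against 21.6% of all promoters. CIT1 held 3 copies of AGGGG, at 159 and 134 bases before the start codon and 42 after it. GGTCAC, the R box of Rtg1 and Rtg3, was present in 0 of 10 and in 5.07% of all promoters. With 500 bases before the start codon, a window chosen after the data were seen, the counts were 8 of 10 for CCAAT (62.4% of all promoters), 8 of 10 for AGGGG (34.1%) and 2 of 10 for GGTCAC (9.52%), the last in ACO1 and IDH1. In that wider window CIT1 also held CCAAT, as ATTGG, at 293 bases before the start codon. IDH2 held AGGGG at 390 and 333 bases before it, and ACO1 and IDH1 held no AGGGG. Beyond the genes printed above, CCAAT was in MDH1, which rose in the wild type, and AGGGG in LSC1, which fell. No match is more than a description of letters in the window, and in the 10 genes the different motifs did not overlap.

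Per coding length, the 10 mRNAs differed widely in level. ACO1, aconitase, had the highest mean normalised count per kilobase, 4390 averaged over the groups, followed by CIT1 at 3436, MDH1 at 3220, IDH2 at 3182, IDH1 at 2985, LSC1 at 2959 and FUM1 at 2515. KGD2 at 1344 and LSC2 at 1342 formed a lower pair, and KGD1 at 399 was lowest. KGD1 lay at percentile 41.9 of 5764 genes with a coding length and the other 9 between the 76.1 and 91.2 percentiles. The levels from CIT1 to FUM1 differ by less than the change that azide made in several of them, so their order is not fixed across groups. All 10 genes have 1 coding exon and overlap no other annotated gene. Together they took 0.283% of the summed level in untreated wild type cells and 0.248% in azide, 0.189% and 0.225% in Δscd6, and 0.327% and 0.343% in Δsbp1.

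**Figure D1:**
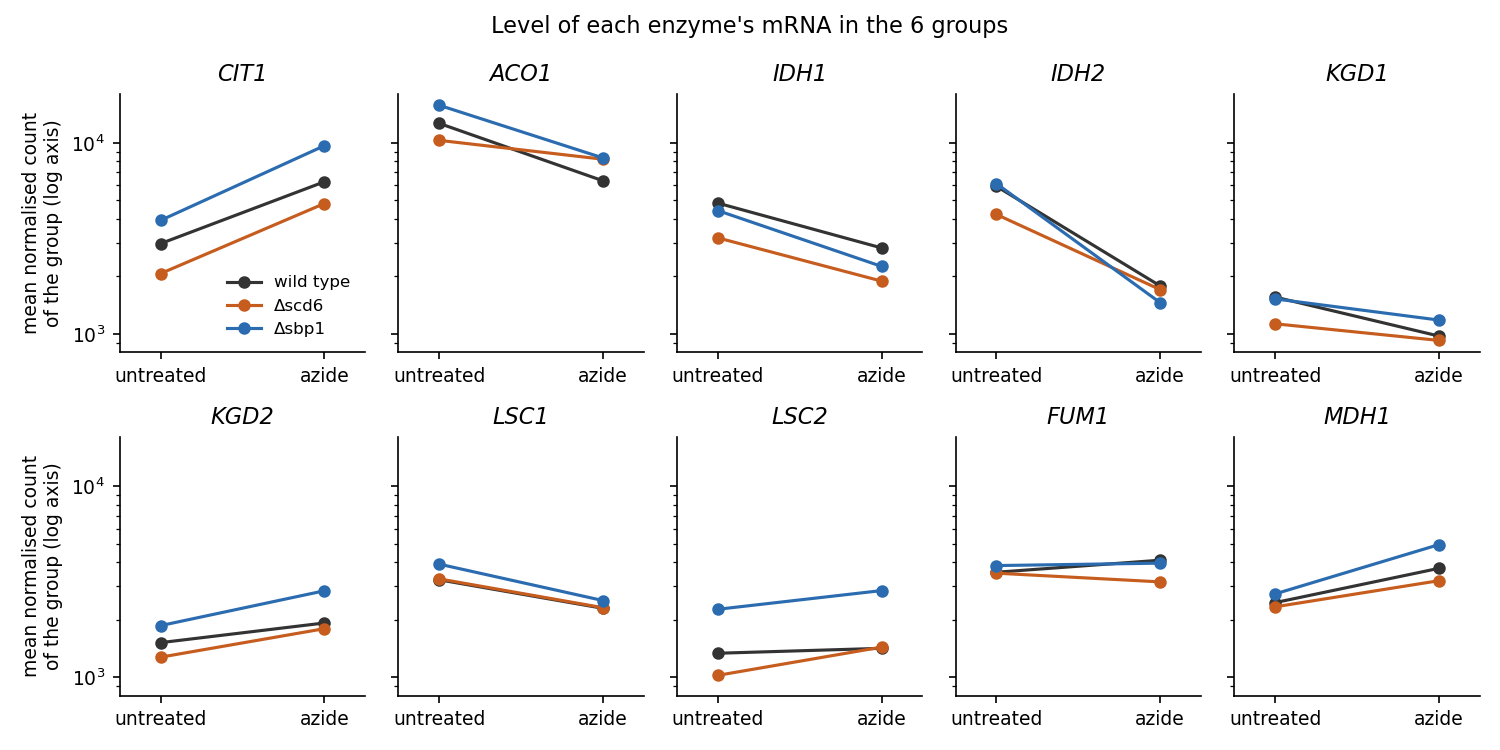
Mean normalised count of each of the 10 mRNAs in the 6 groups (log axis), solved from the deposited overall mean and fold changes; each point is 1 group of 2 libraries, lines join untreated and azide of a strain, and no error bar is drawn because values per library were not used. CIT1, KGD2, LSC2 and MDH1 lie higher in azide in each strain. ACO1, IDH1, IDH2, KGD1 and LSC1 lie lower, except that equal totals would put ACO1 and KGD1 of Δscd6 slightly above their untreated level.

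Azide moved these mRNAs in both directions. CIT1, KGD2, LSC2 and MDH1 lay above their untreated level in each strain, though not every such value passed the test. ACO1, IDH1, IDH2, KGD1 and LSC1 lay below theirs, except that equal totals would put ACO1 and KGD1 of Δscd6 slightly above. In the wild type 7 of the 10 genes passed the test, 2 up (CIT1 and MDH1) and 5 down (ACO1, IDH1, IDH2, KGD1 and LSC1). All genes of the table passed at 42.0%, 21.3% up and 20.6% down. In Δscd6 6 passed, 3 up and 3 down, against 42.5% of all genes, 22.1% up and 20.4% down. In Δsbp1 7 passed, 3 up and 4 down, against 54.9% of all genes, 27.5% up and 27.4% down. With equal totals the splits were 3 up and 3 down in the wild type, 4 and 1 in Δscd6, and 4 and 3 in Δsbp1, while over all genes they went from 1355 up and 1311 down to 1706 and 970, from 1404 and 1297 to 2493 and 527, and from 1748 and 1739 to 2416 and 1211.

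The median log2 response of the 10 genes was -0.20 in the wild type, -0.22 in Δscd6 and -0.16 in Δsbp1, against -0.015, -0.017 and -0.018 over all genes. These medians hide a spread from -1.73 to 1.07 in the wild type, from -1.31 to 1.22 in Δscd6 and from -2.07 to 1.30 in Δsbp1. CIT1 passed upward in all 3 strains, which 14.0% of all genes did, and IDH1, IDH2 and LSC1 passed downward in all 3, which 11.4% of all genes did. FUM1 passed in none. The sign was the same in the 3 strains for 9 of the 10 genes, FUM1 being the exception, and for 71.1% of all genes; equal totals would turn the Δscd6 signs of ACO1, KGD1 and FUM1. The 3 azide responses share no library. Over the 10 genes the responses of the wild type and Δscd6 had a Pearson correlation of 0.93, those of the wild type and Δsbp1 0.98, and those of both deletion strains 0.97; over all 6352 genes the values were 0.71, 0.85 and 0.81.

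**Figure D2:**
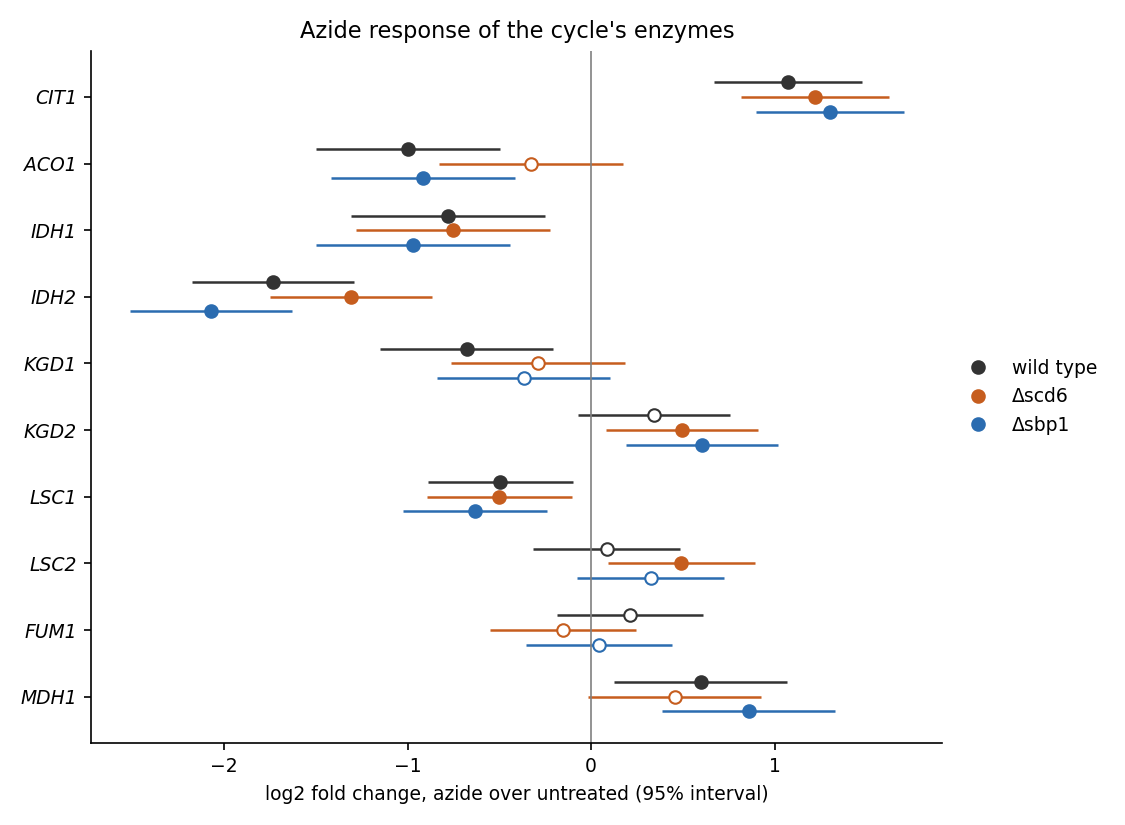
Log2 fold change of azide over untreated for the 10 genes, in the order of the cycle, in the wild type, Δscd6 and Δsbp1; bars are 95% intervals from the implied standard error, filled points passed at an adjusted p under 0.05 and open points did not. CIT1 lies at 1.07 to 1.30 and IDH2 at -1.31 to -2.07, while FUM1 lies within 0.21 of 0 in each strain.

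CIT1, mitochondrial citrate synthase, makes citrate from acetyl-CoA and oxaloacetate and opens the cycle. Its level went from 2969 to 6252 normalised counts with azide in the wild type, from 2069 to 4811 in Δscd6 and from 3928 to 9657 in Δsbp1. The azide level of every strain was above the untreated level of every strain. CIT1 (YNR001C) rose in the authors' deposited table by 1.07 on the log2 scale in the wild type (95% interval 0.67 to 1.48, adjusted p = 1.7e-06), by 1.22 in Δscd6 (0.81 to 1.62, 6.5e-08) and by 1.30 in Δsbp1 (0.90 to 1.70, 2.8e-09). It was the largest rise among the 10 in each of the 3 strains, and lay at percentiles 89.6, 91.1 and 89.7 of all genes.

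ACO1, aconitase, an iron-sulfur enzyme that turns citrate into isocitrate, went from 12642 to 6329 normalised counts in the wild type, from 10304 to 8208 in Δscd6 and from 15730 to 8338 in Δsbp1. Each azide level was below the untreated level of its own strain, with the narrowest drop in Δscd6. ACO1 (YLR304C) fell in the authors' deposited table by 1.00 in the wild type (-1.50 to -0.50, adjusted p = 5.5e-04) and by 0.92 in Δsbp1 (-1.42 to -0.41, 0.0011), and gave -0.33 in Δscd6 (-0.83 to 0.17, 0.31). Scaled to equal totals, the Δscd6 value was 0.06, on the other side of 0. The Δscd6 response of ACO1 differed from that of the wild type by 0.67, which did not pass (adjusted p = 0.28).

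IDH1 and IDH2 encode the subunits of NAD-dependent isocitrate dehydrogenase, which makes 2-oxoglutarate. IDH2, the catalytic subunit, went from 5919 to 1782 normalised counts in the wild type, from 4218 to 1705 in Δscd6 and from 6115 to 1456 in Δsbp1. Its azide levels lay close together in the 3 strains and were all below any untreated level. IDH2 (YOR136W) fell in the authors' deposited table by 1.73 in the wild type (-2.17 to -1.29, adjusted p = 1.2e-12), by 1.31 in Δscd6 (-1.75 to -0.87, 1.3e-07) and by 2.07 in Δsbp1 (-2.51 to -1.63, 1.2e-17). These were the largest falls among the 10, at percentiles 1.98, 4.40 and 3.55 of all genes.

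IDH1, the regulatory subunit, went from 4835 to 2818 normalised counts in the wild type, from 3181 to 1889 in Δscd6 and from 4419 to 2256 in Δsbp1. The azide level was below the untreated level of the same strain in each case. IDH1 (YNL037C) fell in the authors' deposited table by 0.78 in the wild type (-1.31 to -0.25, adjusted p = 0.012), by 0.75 in Δscd6 (-1.28 to -0.23, 0.016) and by 0.97 in Δsbp1 (-1.50 to -0.44, 9.7e-04). The Δscd6 call was lost under equal totals (-0.36, adjusted p = 0.27).

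KGD1 and KGD2 encode the E1 and E2 components of 2-oxoglutarate dehydrogenase, which makes succinyl-CoA, and lay on opposite sides of 0 in each strain, except that equal totals would put KGD1 of Δscd6 above 0; the contrast between the subunits was not tested. KGD1 (YIL125W) fell in the authors' deposited table in the wild type by 0.68 (-1.15 to -0.21, adjusted p = 0.015), from 1559 to 974 normalised counts as solved here. It gave -0.29 in Δscd6 (0.34) and -0.37 in Δsbp1 (0.19) in the authors' deposited table, with levels of 1129 and 924, and of 1525 and 1181. Under equal totals the wild type call of KGD1 was lost (-0.53, adjusted p = 0.065) and the Δscd6 value was 0.10. KGD2 (YDR148C), the succinyltransferase, rose in the authors' deposited table by 0.50 in Δscd6 (0.08 to 0.91, adjusted p = 0.048) and by 0.60 in Δsbp1 (0.19 to 1.02, 0.0098), and gave 0.34 in the wild type (-0.07 to 0.76, 0.19). Its levels went from 1276 to 1798, from 1867 to 2839 and from 1520 to 1926 in that order. The wild type value of KGD2 also passed under equal totals (0.49, adjusted p = 0.048).

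LSC1 and LSC2 encode the α and β subunits of succinyl-CoA ligase, which makes succinate and a nucleoside triphosphate. LSC1 went from 3241 to 2299 normalised counts in the wild type, from 3278 to 2317 in Δscd6 and from 3914 to 2524 in Δsbp1, each below the untreated level of its own strain. LSC1 (YOR142W) fell in the authors' deposited table by 0.49 in the wild type (-0.89 to -0.10, adjusted p = 0.035), by 0.50 in Δscd6 (-0.89 to -0.11, 0.033) and by 0.63 in Δsbp1 (-1.03 to -0.24, 0.0042). These were the smallest changes that passed in all 3 strains, and none passed with equal totals, where they were -0.34, -0.11 and -0.35 with adjusted p-values of 0.16, 0.68 and 0.12. LSC2 (YGR244C) rose in the authors' deposited table by 0.49 in Δscd6 (0.09 to 0.89, adjusted p = 0.042), and gave 0.09 in the wild type (0.77) and 0.33 in Δsbp1 (0.17). LSC2 levels went from 1025 to 1440 in Δscd6, from 1338 to 1419 in the wild type and from 2273 to 2847 in Δsbp1. In Δsbp1 both levels were above every level of the other strains. Under equal totals the Δsbp1 value of LSC2 passed as well (0.61, adjusted p = 0.0064).

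FUM1, fumarase, hydrates fumarate to malate and works in the mitochondrion and the cytosol. It was the steadiest of the 10, with levels between 3162 and 4105 normalised counts in the 6 groups. FUM1 (YPL262W) gave 0.21 in the wild type (-0.19 to 0.61, adjusted p = 0.42), -0.15 in Δscd6 (-0.55 to 0.25, 0.58) and 0.04 in Δsbp1 (-0.36 to 0.44, 0.87) in the authors' deposited table. Those intervals leave out a change of 1 on the log2 scale in either direction; the Δscd6 value was 0.24 with equal totals.

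MDH1, mitochondrial malate dehydrogenase, closes the cycle by making oxaloacetate. Its level went from 2462 to 3722 normalised counts in the wild type, from 2341 to 3206 in Δscd6 and from 2735 to 4953 in Δsbp1, each above the untreated level of its own strain. MDH1 (YKL085W) rose in the authors' deposited table by 0.60 in the wild type (0.12 to 1.07, adjusted p = 0.034) and by 0.86 in Δsbp1 (0.38 to 1.33, 0.0012), and gave 0.45 in Δscd6 (-0.02 to 0.93, 0.12). With equal totals the Δscd6 value also passed (0.85, adjusted p = 0.0016).

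Subunits of one enzyme differed between groups in the ratio of their levels per coding length. IDH1 over IDH2 was 0.837 in untreated wild type cells and 1.62 in azide, 0.773 and 1.14 in Δscd6, and 0.741 and 1.59 in Δsbp1. IDH2 was thus the more abundant subunit mRNA in the 3 untreated groups and IDH1 in the 3 azide groups. KGD1 over KGD2 went from 0.469 to 0.231 in the wild type, from 0.405 to 0.235 in Δscd6 and from 0.373 to 0.190 in Δsbp1. LSC1 over LSC2 went from 3.14 to 2.10 in the wild type, from 4.15 to 2.09 in Δscd6 and from 2.23 to 1.15 in Δsbp1. CIT1 over ACO1, successive enzymes rather than subunits, went from 0.381 to 1.60, from 0.326 to 0.951 and from 0.405 to 1.88. A ratio within a group does not depend on how the groups are scaled to each other; these ratios carry no test here.

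**Figure D3:**
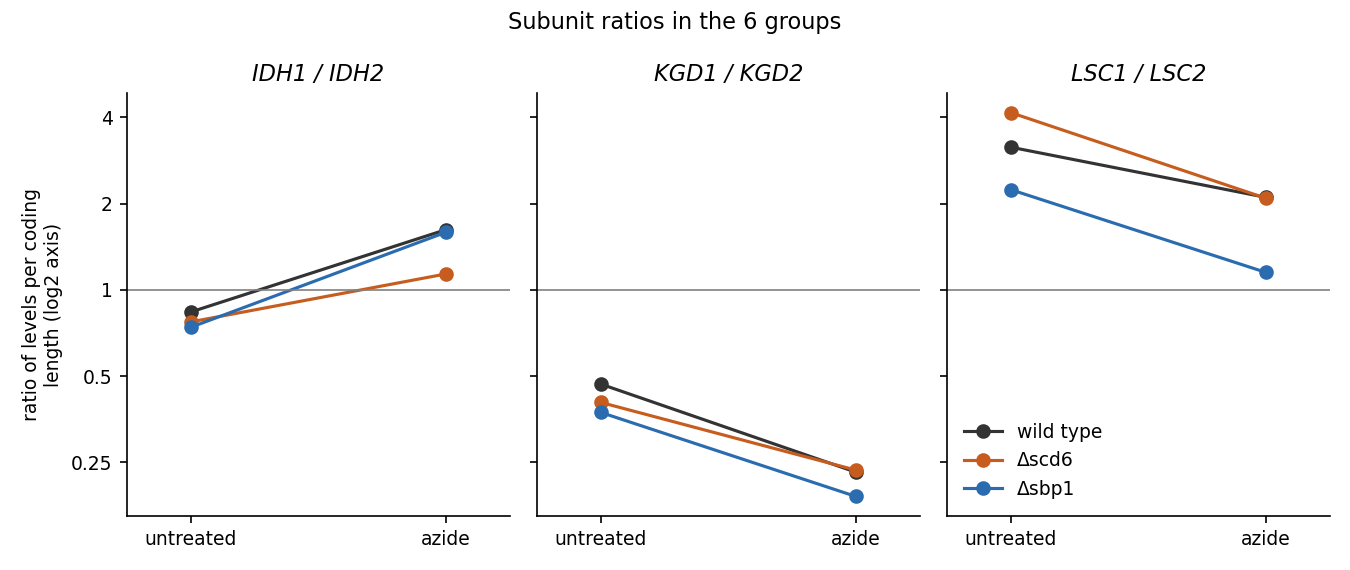
Ratio of levels per coding length of the paired subunits IDH1/IDH2, KGD1/KGD2 and LSC1/LSC2 (log2 axis) in untreated and azide groups of each strain; 1 point is 1 group and the grey line marks equal levels. IDH1/IDH2 crosses from below 1 to above 1 with azide in the 3 strains, while KGD1/KGD2 and LSC1/LSC2 go down.

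Some of the enzymes have isozymes, which were set beside the member. CIT2, peroxisomal citrate synthase and the standard reporter of the retrograde pathway, rose in all 3 strains in the authors' deposited table, by 1.22 on the log2 scale in the wild type (adjusted p = 2.8e-06), 1.45 in Δscd6 (3.1e-08) and 1.83 in Δsbp1 (7.8e-13). Per coding length CIT1 was at 0.724 of CIT2 in untreated and 0.652 in azide-treated wild type cells, at 0.728 and 0.619 in Δscd6, and at 1.18 and 0.812 in Δsbp1, where CIT1 was the more abundant of the pair when untreated. CIT3, a minor mitochondrial citrate synthase, had log2 values of 0.20 in wild type (adjusted p = 0.61) and -0.27 in Δscd6 cells (0.48) and fell by 0.71 in Δsbp1 (0.029; -0.43 and adjusted p = 0.20 with equal totals) in the authors' deposited table.

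The cytosolic MDH2 (-0.36, 0.33 and -0.37 in the wild type, Δscd6 and Δsbp1, adjusted p = 0.16, 0.20 and 0.12) and the peroxisomal MDH3 (-0.06, 0.08 and 0.15, adjusted p = 0.85, 0.80 and 0.56) did not pass in the authors' deposited table; with equal totals MDH2 passed in Δscd6 (0.72, adjusted p = 0.0020). MDH1 per coding length went from 0.839 to 1.63 of MDH2 in the wild type, from 1.12 to 1.23 in Δscd6 and from 0.979 to 2.29 in Δsbp1. Among the NADP-dependent isocitrate dehydrogenases, the peroxisomal IDP3 rose in all 3 strains in the authors' deposited table, by 1.30 in the wild type (adjusted p = 1.3e-06), 1.38 in Δscd6 (3.9e-07) and 2.34 in Δsbp1 (4.6e-18), the opposite direction to IDH1 and IDH2. The mitochondrial IDP1 did not pass in any strain (-0.40, 0.06 and -0.28, adjusted p = 0.11, 0.83 and 0.24), and the cytosolic IDP2 rose by 0.66 in Δsbp1 (0.033) with 0.33 in wild type (0.36) and -0.57 in Δscd6 cells (0.099) in the authors' deposited table. The difference between its Δsbp1 or Δscd6 response and that of the wild type did not pass. Of these 7 isozymes, 2 rose and 0 fell in the wild type, 2 and 0 in Δscd6, and 3 and 1 in Δsbp1. Over all genes 21.3%, 22.1% and 27.5% rose in these strains, and 20.6%, 20.4% and 27.4% fell.

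**Figure D4:**
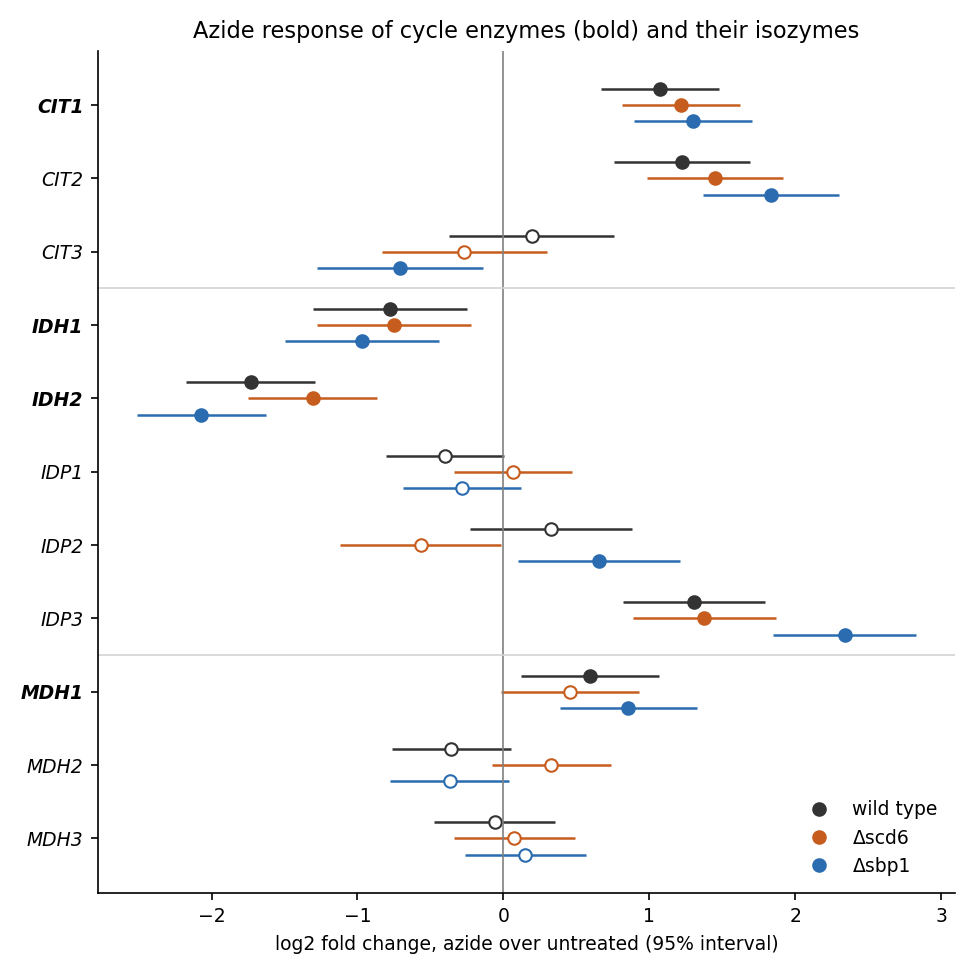
Log2 fold change of azide over untreated for the cycle's citrate synthase, isocitrate and malate dehydrogenases (bold) and isozymes of them in 3 strains; bars are 95% intervals from the implied standard error, and filled points passed at an adjusted p under 0.05. CIT2 lies with CIT1 above 0, while IDP3 and IDH2 lie on opposite sides.

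Reads shared between copies could mix such values only where the sequences are alike. The coding sequences of CIT1 and CIT2 were identical at 73.7% of aligned bases, the highest of the 6 pairs compared, and those of IDH1 and IDH2 at 59.6%, the lowest. The longest stretch that CIT1 and CIT2 share without a mismatch was 21 bases, and it is shown because it bounds how far a read can match both copies exactly.
CIT1 and CIT2: tatggtggtatgagaggtatt
MDH1 and MDH2 shared at most 14 bases. The sources used here give neither the read length nor the treatment of reads that match at several places.

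Other genes of the cycle and its supply were counted by list. Over all 6352 genes 21.3% rose and 20.6% fell in the wild type, 22.1% and 20.4% in Δscd6, and 27.5% and 27.4% in Δsbp1. Under equal totals 1706 genes rose and 970 fell in the wild type, 2493 and 527 in Δscd6, and 2416 and 1211 in Δsbp1. Succinate dehydrogenase, which links the cycle to the respiratory chain, had 2 of 4 genes up and 0 down in wild type cells, 1 and 0 in Δscd6 and 1 and 1 in Δsbp1; under equal totals the counts were 3 and 0, 2 and 0, and 3 and 1. The iron-sulfur subunit SDH2 rose in all 3 strains in the authors' deposited table, by 0.70 on the log2 scale (adjusted p = 0.0041), 0.73 (0.0032) and 0.79 (7.0e-04), while the flavoprotein SDH1 stood at -0.40 in wild type (0.14) and -0.21 in Δscd6 cells (0.47) and fell by 0.84 in Δsbp1 (4.2e-04). The membrane anchor SDH4 rose by 0.79 in the wild type (0.0075), with 0.39 in Δscd6 (0.22) and 0.33 in Δsbp1 (0.27) in the authors' deposited table, and both of the latter passed under equal totals. The other anchor, SDH3, stood at 0.47 (0.070), -0.08 (0.80) and 0.32 (0.20) in the authors' deposited table, and passed upward in the wild type and Δsbp1 under equal totals. LPD1, the E3 component of the 2-oxoglutarate dehydrogenase complex of KGD1 and KGD2, fell in the wild type by 0.59 (0.0079) in the authors' deposited table. This call was lost with equal totals (-0.44, adjusted p = 0.055). LPD1 gave 0.14 in Δscd6 (0.60) and -0.28 in Δsbp1 (0.22) in the authors' deposited table, and equal totals raised the Δscd6 value to 0.53 (0.016). KGD4, a small subunit of the same complex, fell in Δscd6 by 0.48 (0.040; -0.09 and 0.74 with equal totals) and gave -0.28 in the wild type (0.26) and 0.11 in Δsbp1 (0.64) in the authors' deposited table. Pyruvate dehydrogenase, which supplies acetyl-CoA, gave 1 up and 0 down of 4 in the wild type, and 1 and 2 in either deletion strain. PDX1, its E3-binding protein, rose in all 3 in the authors' deposited table, by 0.61 (adjusted p = 0.014), 0.74 (0.0026) and 1.08 (3.9e-06). The E1 subunits PDA1 (-0.77 and -0.77, adjusted p = 0.0075 and 0.0055) and PDB1 (-0.75 and -1.16, adjusted p = 0.0063 and 9.4e-06) fell in Δscd6 and Δsbp1 in the authors' deposited table; under equal totals PDB1 in Δsbp1 still passed and the other 3 calls were lost.

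Of 6 genes of pyruvate entry and anaplerosis 3 rose and 0 fell in the wild type and in Δscd6, and 4 rose and 1 fell in Δsbp1. Over all genes 21.3%, 22.1% and 27.5% rose in the wild type, Δscd6 and Δsbp1, and 20.6%, 20.4% and 27.4% fell. PYC1, a pyruvate carboxylase that makes oxaloacetate, rose in the authors' deposited table by 1.55 in the wild type (adjusted p = 1.1e-07), 1.23 in Δscd6 (3.6e-05) and 1.00 in Δsbp1 (5.3e-04), in the same direction as CIT1. The mitochondrial pyruvate carrier subunits MPC2 (1.07, 0.74 and 1.29) and MPC3 (1.42, 1.98 and 2.97) rose in the 3 strains in the authors' deposited table. In Δsbp1 MPC1 rose by 0.50 (adjusted p = 0.036) and the malic enzyme MAE1 fell by 0.99 (0.0025) in the authors' deposited table. Of 7 mitochondrial carriers of cycle intermediates 3 rose and 2 fell in the wild type, 2 and 2 in Δscd6, and 3 and 2 in Δsbp1. ODC2, an oxodicarboxylate carrier that transports 2-oxoglutarate, rose in the authors' deposited table by 2.30, 1.64 and 2.70 in the wild type, Δscd6 and Δsbp1 on the log2 scale (adjusted p = 2.5e-23, 1.6e-12 and 2.4e-31). The citrate and oxoglutarate carrier YHM2 fell in the authors' deposited table by 1.16, 0.64 and 0.92 (adjusted p = 1.3e-05, 0.021 and 4.4e-04), with -0.25 and an adjusted p of 0.40 in Δscd6 under equal totals. The oxaloacetate carrier OAC1 rose (0.71, 1.13 and 1.19) and the dicarboxylate carrier DIC1 fell (-0.90, -1.40 and -2.24) in the 3 strains in the authors' deposited table; the wild type call of DIC1 was lost under equal totals (-0.75, adjusted p = 0.076). SFC1, the succinate-fumarate carrier, rose by 2.43 in the wild type (adjusted p = 5.8e-06) and 2.38 in Δsbp1 (1.9e-05) in the authors' deposited table. It gave 0.765 in Δscd6 (0.22), and -1.52 for Δscd6 against the wild type in azide (0.025), in the authors' deposited table. Its mean normalised count was low, at 40.7. Of the glyoxylate enzymes, MLS1 rose in the wild type by 0.79 (0.030) and ICL1 fell in Δsbp1 by 0.62 (0.036) in the authors' deposited table. The ICL1 call was lost under equal totals (-0.34, adjusted p = 0.27), and 0 of 2 passed in Δscd6. MLS1 had a low mean normalised count, 90.

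Regulators of these genes were counted as well. Of the 4 subunits of the Hap complex 4 rose in the wild type and 2 in either deletion strain, with 0 down. HAP4, the activator subunit, rose in the authors' deposited table by 0.82 in the wild type (adjusted p = 0.010), 2.34 in Δscd6 (5.2e-14) and 1.34 in Δsbp1 (8.6e-06) on the log2 scale. HAP2 rose in the 3 strains (1.16, 0.65 and 0.99), and HAP3 (0.86, adjusted p = 0.014) and HAP5 (0.75, 0.049) rose in the wild type in the authors' deposited table. Of the 4 retrograde regulators 0 passed in the wild type, 1 rose in Δscd6 and 2 rose in Δsbp1, and with equal totals 2, 3 and 3 rose. Over all genes 21.3%, 22.1% and 27.5% rose in the wild type, Δscd6 and Δsbp1. With equal totals 1706, 2493 and 2416 of the 6352 genes rose. MKS1, a negative regulator of the pathway, rose by 0.64 in Δscd6 (adjusted p = 0.014) and 0.85 in Δsbp1 (5.1e-04), and RTG3 rose by 0.51 in Δsbp1 (0.036) in the authors' deposited table.

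The deletions themselves moved few of the 10 mRNAs past the test. These comparisons share the wild type libraries with the wild type azide response. In Δscd6 0 of 10 passed against the wild type when untreated, where 2.52% of all genes passed, and 0 of 10 in azide, where 4.31% did. Untreated, 9 of the 10 lay below the wild type, with a median of -0.34 against -0.014 over all genes; IDH1 at -0.60 (-1.13 to -0.08, adjusted p = 0.19), CIT1 at -0.52 (-0.92 to -0.12, 0.13) and IDH2 at -0.49 (-0.93 to -0.05, 0.20) were the lowest in the authors' deposited table. An unadjusted p under 0.05 was reached by CIT1, IDH1 and IDH2 untreated and by IDH1 in azide (-0.58, adjusted p = 0.27) in the authors' deposited table. With equal totals, which moves this comparison by -0.28, 5 of 10 fell in untreated Δscd6 cells (CIT1, IDH1, IDH2, KGD1 and LSC2), among 63 genes up and 1181 down in place of 92 and 68. HAP4 fell in the same comparison by 1.08 (adjusted p = 0.013) in the authors' deposited table. The other Hap subunits lay above the wild type there and did not pass. They were HAP3 (0.98, adjusted p = 0.0505), HAP5 (0.41, 0.50) and HAP2 (0.165, 0.76) in the authors' deposited table. A link between these subunits and the enzymes was not tested.

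In Δsbp1 1 of 10 rose against the wild type when untreated, where 1.98% of all genes passed and 1.54% rose. In azide 3 of 10 rose, where 21.2% of all genes passed and 9.29% rose; 0 of the 10 fell in either comparison. Equal totals turned the split of all genes in azide from 590 up and 756 down to 996 and 574. LSC2, the β subunit of succinyl-CoA ligase, was the gene that rose in both conditions in the authors' deposited table, by 0.77 untreated (0.36 to 1.17, adjusted p = 0.014) and by 1.00 in azide (0.60 to 1.40, 2.3e-05), at percentiles 97.4 and 97.3 of all genes. Its partner LSC1 gave 0.27 (adjusted p = 0.68) and 0.14 (0.67) in the authors' deposited table. In azide CIT1 (0.63, 0.22 to 1.03, adjusted p = 0.015) and KGD2 (0.56, 0.14 to 0.98, 0.041) also rose in the authors' deposited table; untreated they gave 0.40 (0.45) and 0.30 (0.68). SDH2 (0.66, adjusted p = 0.014) and KGD4 (0.77, 0.0015) rose in the same azide comparison, as did IDP2 (0.74, 0.034) and IDP3 (0.61, 0.041) in the authors' deposited table. In that comparison MPC3 rose by 2.00 (adjusted p = 2.1e-15) and MAE1 fell by 1.54 (1.1e-05) in the authors' deposited table. MPC3 is the nearest annotated gene to LSC2, with 259 bases between them. LSC2 (YGR244C) lies on the minus strand and MPC3 (YGR243W) on the plus strand, and a link between their values was not tested. The counts of 1 and 3 among the 10 were the same with equal totals.

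**Figure D5:**
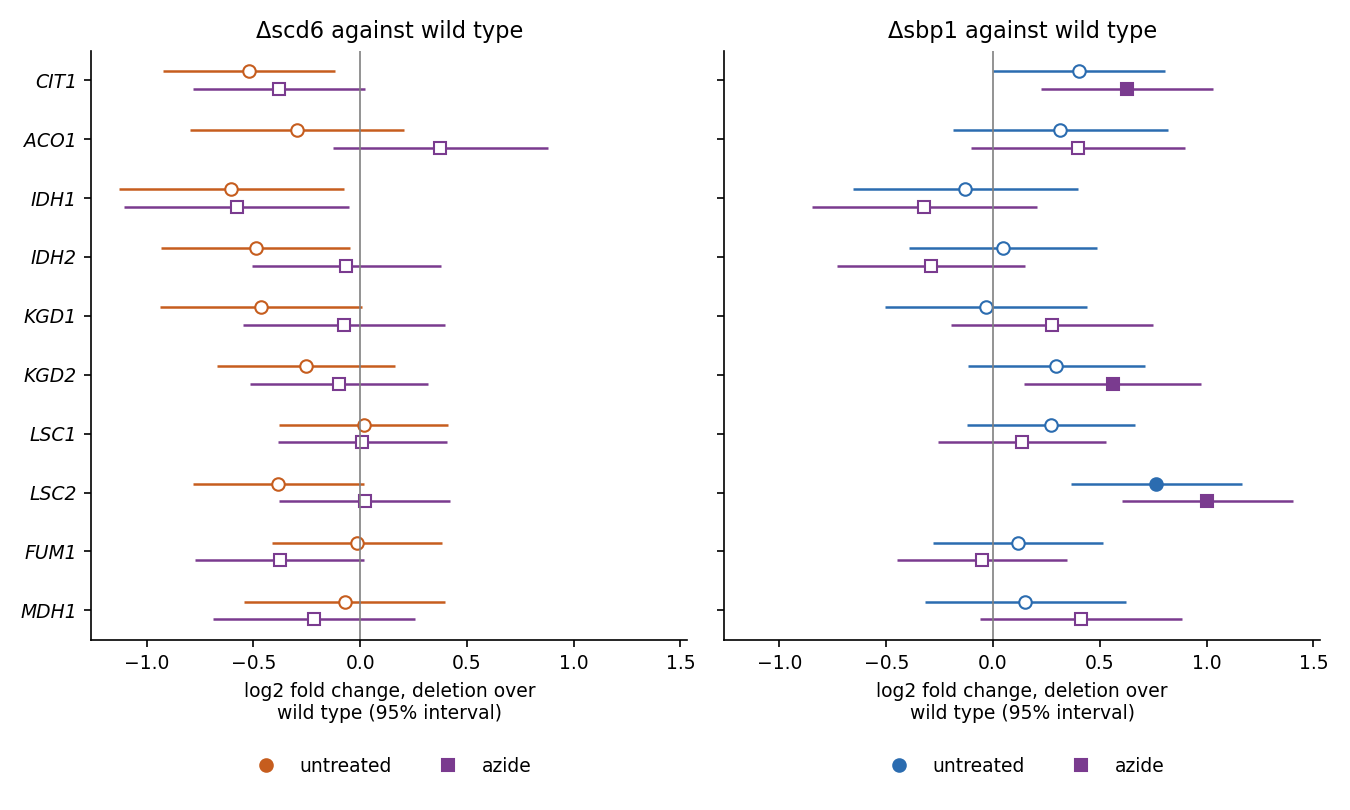
Log2 fold change of Δscd6 (left) and Δsbp1 (right) over the wild type for the 10 genes, untreated (circles) and in azide (squares); bars are 95% intervals from the implied standard error, and filled points passed at an adjusted p under 0.05. No filled point appears for Δscd6, and for Δsbp1 LSC2 is filled in both conditions and CIT1 and KGD2 in azide.

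Whether a deletion changed the azide response itself was tested as the difference of both log2 fold changes. None of the 10 passed in Δscd6, where 4.12% of 6331 genes did, and none in Δsbp1, where 2.23% of 6329 genes did; no unadjusted p of the 10 was under 0.05. The largest difference was that of ACO1 in Δscd6, 0.67 (95% interval -0.04 to 1.38, adjusted p = 0.28). IDH2 differed by 0.43 in Δscd6 (-0.21 to 1.06, 0.49) and by -0.34 in Δsbp1 (-0.98 to 0.30, 0.65). CIT1 differed by 0.14 (-0.43 to 0.72, 0.83) and by 0.22 (-0.35 to 0.80, 0.76), and LSC2 by 0.41 (-0.16 to 0.97, 0.45) and by 0.24 (-0.33 to 0.81, 0.73). These intervals are wide, so a gene that passed in one strain and not in another, such as ACO1, KGD1, KGD2, LSC2 or MDH1, is not shown to respond differently.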

How the data were processed

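The 12 libraries, 2 in each of 6 groups, were assigned from their titles. Per the labels, RNA was extracted with hot phenol and libraries came from an NEBNext RNA II kit. Per the submitters' processing notes the tools were STAR 2, Picard, featureCounts and edgeR, whose roles are not described; the sources used here do not give build, annotation or strandedness. Each of 7 deposited tables holds, per the file headers, a mean normalised count (a signal, identical in the 7), a linear fold (ratio), a log2 fold change, and a p-value with its adjusted p-value, all computed by the authors. The adjusted values equal a Benjamini-Hochberg adjustment over 6352 genes to within 4.6e-08. Depth per library is unknown.

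Group levels were solved by least squares from the 7 log2 fold changes, which were additive to within 0.001. A standard error was implied by each log2 fold change of at least 0.02 in size and its p-value; intervals use a gene's median over the tables. For a difference of azide responses the larger of both available variances was used, with a normal test and Benjamini-Hochberg adjustment. The step was run on simulated data with normal errors of the implied size, which cannot show whether the implied standard errors are right. The planned count model was replaced by the authors' comparisons, as no counts are in the tables, and planned protein comparisons by coding sequences. The 10 genes, the pathway lists, the motifs and the rule for named genes (all members, and list genes that passed or are isozymes) were chosen with earlier results of these data known; AGGGG was added later. Of the planned lists 1 gene was left out and is not reported here; other list genes that did not pass are given mostly by count. KGD4 is YMR31 in the tables. Of the 6352 IDs 5764 matched RefSeq R64, used for lengths, positions and sequences. Python 3.11.15, pandas 2.3.3, numpy 2.4.6, scipy 1.17.1, biopython 1.88 and matplotlib 3.10.9 were used.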

Additional observations from a re-analysis of the deposited data

Results flagged for a closer look

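None of the 10 enzymes had an azide response that differed from the wild type by test in either deletion strain. Among the other genes named, 3 did. HAP4, the activator subunit of the Hap complex, rose more in Δscd6, by a difference of 1.52 on the log2 scale (adjusted p = 0.0099), and HAP3, a DNA-binding subunit of that complex, differed by -1.32 (adjusted p = 0.050), with 0.86 in the wild type and -0.46 in Δscd6 (adjusted p = 0.21) in the authors' deposited table. MPC3, a subunit of the mitochondrial pyruvate carrier, rose more in Δsbp1, by a difference of 1.55 (adjusted p = 0.0036). With equal totals the HAP3 difference was -1.08 and did not pass (adjusted p = 0.078), while in Δscd6 the differences of MDH2 (0.93, adjusted p = 0.025) and LPD1 (0.97, adjusted p = 0.012) passed, from 0.69 and 0.73 without it (adjusted p = 0.16 and 0.11). Single libraries were not examined, since the tables hold no values for them.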

How the results depend on the processing

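No paired analysis was possible because the tables hold no values per library, and for the same reason no replicate could be left out. The filter on a mean normalised count of at least 100, the variance of the azide responses alone and the levels solved from the wild type comparisons changed no call and no count of the 10 genes. Stricter choices lowered most counts. In the wild type azide response 7 became 3 at an adjusted p under 0.01, 3 with Benjamini-Yekutieli adjustment and 2 with an absolute log2 fold change of at least 1. In Δscd6 6 became 2, 2 and 2 in that order. In Δsbp1 it was 7, 6 and 2. For Δsbp1 against the wild type 1 became 0, 0 and 0 untreated, and 3 became 1, 1 and 1 in azide. Equal totals took Δscd6 against the wild type untreated from 0 to 5 and turned the sign of 9 values that had not passed. In the Δscd6 azide response ACO1 became 0.063, KGD1 0.10 and FUM1 0.24. Against the wild type LSC1 became -0.26 in untreated Δscd6, LSC1 -0.026 and LSC2 -0.016 in azide-treated Δscd6, and FUM1 0.075 in azide-treated Δsbp1. The differences of the Δscd6 response became 0.23 for LSC1 and 0.10 for MDH1. No called value changed sign. Without values per library, the depth and replicate spread behind each level are unknown.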

Other observations

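The gene whose 6 group levels lay nearest to those of each enzyme was looked up among 5710 genes with a mean normalised count of at least 100, by Euclidean distance of centred log2 levels. This is a description over 6 groups and carries no test. For CIT1 it was TMT1, trans-aconitate methyltransferase, at a distance of 0.22; TMT1 gave azide responses of 1.00, 1.49 and 1.29 in the wild type, Δscd6 and Δsbp1 in the authors' deposited table. For IDH2 it was MET5, a sulfite reductase subunit, at 0.25, with -1.67, -1.32 and -1.78 in the authors' deposited table. For MDH1 it was FMS1, polyamine oxidase, at 0.08, and for FUM1 it was CIA1 of cytosolic iron-sulfur protein assembly, at 0.12. It was HAT1 for ACO1 (0.17), ESL1 for IDH1 (0.24) and the unnamed YKL202W for KGD1 (0.19). It was PEX29 for KGD2 (0.11), NEO1 for LSC1 (0.08) and ARA1 for LSC2 (0.28). The azide responses of such genes resemble those of the enzyme because the genes were picked on these levels. For none of the 10 was the nearest gene another of the 10. IDH1, the nearest member to IDH2, ranked 446th at a distance of 1.15, and MDH1, the nearest member to CIT1, ranked 483rd at 0.89. KGD2 and MDH1 were the closest pair among the 10, at 0.32.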
